A study of Mus musculus with 2 samples.

Results

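The 10 glycolysis genes described here were followed through the H3K79me2 peak lists of resting mouse macrophages: the glucose transporter gene Slc2a1, the hexokinase genes Hk1, Hk2 and Hk3, the phosphofructokinase genes Pfkl and Pfkp, the aldolase gene Aldoa, Gapdh, the pyruvate kinase gene Pkm and the lactate dehydrogenase gene Ldha. They were taken as a named list, drawn up with earlier results of these data known, and are 10 of 21938 protein-coding genes. All 10 symbols were found in GENCODE M21 (mm10), Aldoa as 2 separate records, which makes 11 records with 111 annotated transcripts. The material was bone-marrow-derived macrophages, primary cells of C57BL/6J mice that received no stimulation, in 2 biological replicates. Both replicates carry the same donor identifier, the labels give 10 ng as the starting quantity of each library and neither age nor sex. Nothing in the labels says whether the replicates came from separate animals or cultures, so the spread between them may be technical. There was 1 group and no second condition, so the comparisons below are between genes, between positions along a gene and between the replicates, and none of them has a test.

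H3K79me2 is dimethylation of lysine 79 of histone H3 and is laid down by the methyltransferase Dot1l in step with elongating RNA polymerase II. It is known as a mark of the early part of the body of transcribed genes, with the nucleosome-poor start itself usually free of it. Glycolysis turns glucose into pyruvate in the cytosol, and lactate dehydrogenase turns pyruvate into lactate while restoring NAD+. Macrophages are known to rely on this pathway, and to raise its flux when they meet microbial products. Most of its steps are catalysed by 1 of several isoenzymes, each encoded by its own gene and known for its own tissues.

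The 4 deposited peak lists were 1 of each replicate alone (22979 and 31577 peaks over 63.5 and 114 Mb), 1 called on the pooled alignments (26838 peaks, 106 Mb) and the authors' replicated list (15559 peaks, 93.2 Mb), which is the list meant where none is named. They give no read counts, and the depth of either library is unknown. A stretch of touching or overlapping peaks is called a block. Marked, below, means that blocks took up 200 bp or more of the first 3 kb downstream of a gene's outermost annotated 5′ end, with that window cut short where the gene was shorter. A gene without a block may still carry the modification below what the peak calling picks up, and a block in bulk chromatin does not tell what share of the cells carried it. All 8 macrophage genes checked (Adgre1, Spi1, Cd68, Itgam, Lyz2, Mertk, Fcgr1 and Mpeg1) were marked in each replicate. The share of all protein-coding genes marked was 27.2% in replicate 1 and 35.6% in replicate 2. Spi1 was near the minimum in replicate 1, with 282 bp. None of the markers of T and NK cells, B cells, neutrophils, fibroblasts or erythroid and megakaryocyte cells, 4 genes each, had a base under any of the lists. That is the more usual state of a gene: 65.9% of all protein-coding genes had no base under the replicated list.

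The 10 glycolysis genes all carried H3K79me2. By the outermost 5′ end, 8 of the 10 were marked, beside 30.3% of all protein-coding genes. The other 2, Hk1 and Ldha, had their blocks at internal starts, and when every annotated transcript 5′ end was allowed, 10 of 10 were marked, beside 32.9% of all protein-coding genes. Each replicate's own list gave the same counts of 8 and 10, with 27.2% and 29.7% of all genes called in replicate 1 and 35.6% and 38.4% in replicate 2. The pooled list, which shares 15202 peaks with the replicated list, gave 8 and 10 as well, beside 34.3% and 37.0% of all genes. Peaks covered between 2977 bp (Gapdh) and 27718 bp (Hk1) of a gene, with a median of 10215 bp, against a median of 6278 bp over the 7220 genes marked at any 5′ end. As a share of the gene the range was 25.0% to 64.7% with a median of 41.2%, against 32.5% over those 7220 genes.

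**Figure D1:**
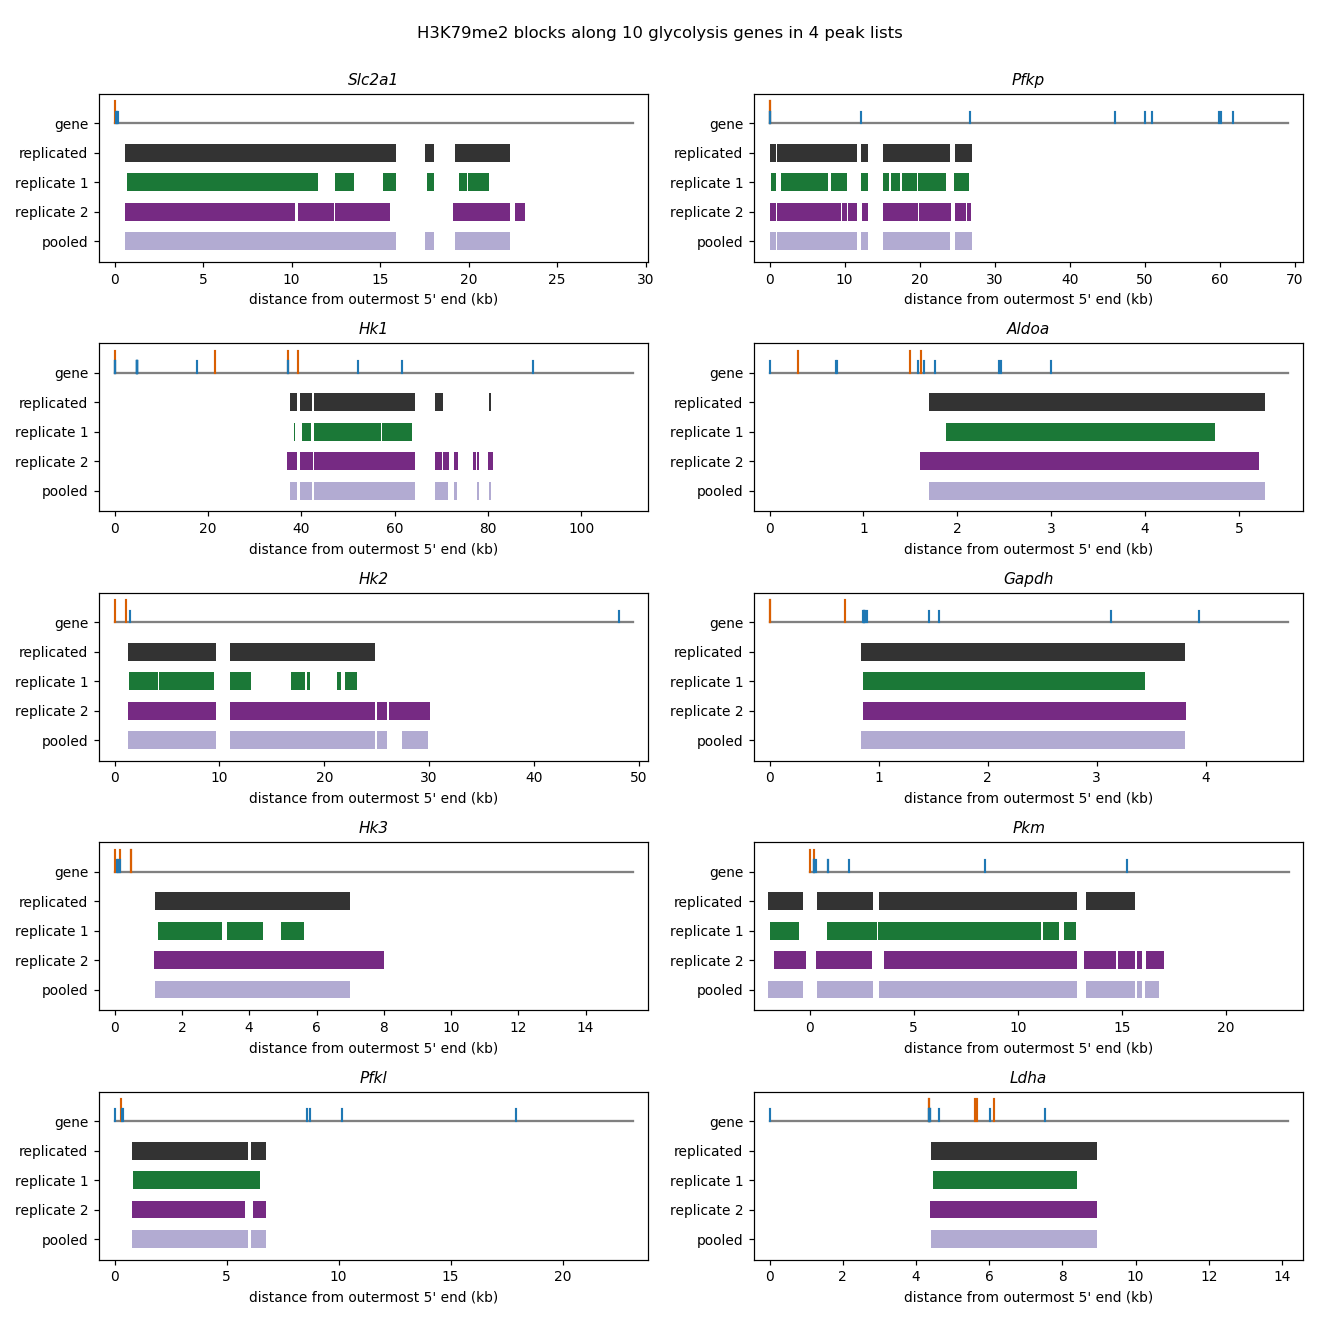
Blocks of H3K79me2 (bars) along each gene in the replicated, replicate 1, replicate 2 and pooled lists, by distance in kb from the outermost annotated 5′ end; transcription runs to the right, tall orange ticks are 5′ ends of basic-set transcripts and short blue ticks those of other transcripts, and each panel has its own scale. Within the genes the bars begin after a 5′ end and stop before the end of the gene. At Hk1 and Ldha they begin 37578 and 4404 bp into the gene in the replicated list. At Pkm a further bar lies before the outermost 5′ end in each list.

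The sequences at 7 annotated starts are shown. Of these, the Hk1 outermost start had 0 bp of its first 3 kb covered, and the others had a block within 3 kb. The Aldoa first start had 1602 bp covered and the Aldoa later start 2795 bp, so that pair does not set a marked start against an unmarked one. Each is reference sequence from the RefSeq promoter table (GRCm38.p6, the same build as mm10), from 220 bases before a RefSeq start to its first 30 bases, 5′ to 3′ on the strand of the gene. Capitals mark ACGTG or GCGTG on either strand, the core letters of the hypoxia response element that hypoxia-inducible factors are known to bind. The Hk1 pair and the Aldoa pair each set a start with few CpG dinucleotides (1 and 0) against a later start of the same gene with many (16 and 19). The windows without capitals held neither motif. No base of these 7 windows lay under a block of the replicated list. Of the 15 RefSeq windows of the 10 genes, 2 that are not shown were covered over all 250 bp: those of the later starts of Pkm (859 bp after the outermost 5′ end) and Ldha (5607 bp).
Slc2a1, chr4:119108525-119108774, plus strand: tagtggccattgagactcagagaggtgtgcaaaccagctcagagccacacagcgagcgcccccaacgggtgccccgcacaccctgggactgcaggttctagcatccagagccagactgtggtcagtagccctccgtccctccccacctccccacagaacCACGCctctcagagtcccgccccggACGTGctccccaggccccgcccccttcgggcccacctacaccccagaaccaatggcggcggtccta
Hk1 outermost start, chr10:62379879-62380128, minus strand: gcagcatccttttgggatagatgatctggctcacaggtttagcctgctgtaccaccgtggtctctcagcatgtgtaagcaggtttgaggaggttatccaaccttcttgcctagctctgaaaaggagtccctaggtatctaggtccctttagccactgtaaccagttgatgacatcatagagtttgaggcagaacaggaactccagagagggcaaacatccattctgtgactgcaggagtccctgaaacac
Hk1 internal start, chr10:62340392-62340641, minus strand: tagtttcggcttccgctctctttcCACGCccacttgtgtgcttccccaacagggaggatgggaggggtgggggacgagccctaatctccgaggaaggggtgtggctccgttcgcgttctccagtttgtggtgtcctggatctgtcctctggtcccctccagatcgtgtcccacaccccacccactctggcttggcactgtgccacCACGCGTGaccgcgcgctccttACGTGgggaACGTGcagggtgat
Aldoa first start, chr7:126800418-126800667, minus strand: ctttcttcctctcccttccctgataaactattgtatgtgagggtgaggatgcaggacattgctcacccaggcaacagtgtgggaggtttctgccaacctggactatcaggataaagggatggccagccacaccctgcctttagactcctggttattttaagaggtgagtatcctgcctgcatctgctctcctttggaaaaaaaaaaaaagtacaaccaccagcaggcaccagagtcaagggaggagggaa
Aldoa later start, chr7:126799225-126799474, minus strand: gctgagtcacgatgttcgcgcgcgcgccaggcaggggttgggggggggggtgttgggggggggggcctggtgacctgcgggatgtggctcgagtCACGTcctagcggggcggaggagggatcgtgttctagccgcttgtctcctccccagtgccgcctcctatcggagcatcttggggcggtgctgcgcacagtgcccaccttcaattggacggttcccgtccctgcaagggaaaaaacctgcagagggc
Pkm, chr9:59656356-59656605, plus strand: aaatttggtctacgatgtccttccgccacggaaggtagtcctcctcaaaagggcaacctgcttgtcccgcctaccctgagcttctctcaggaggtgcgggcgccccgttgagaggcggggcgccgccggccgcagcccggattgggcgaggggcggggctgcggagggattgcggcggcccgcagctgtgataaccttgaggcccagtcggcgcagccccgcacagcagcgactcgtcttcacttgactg
Ldha, chr7:46845584-46845833, plus strand: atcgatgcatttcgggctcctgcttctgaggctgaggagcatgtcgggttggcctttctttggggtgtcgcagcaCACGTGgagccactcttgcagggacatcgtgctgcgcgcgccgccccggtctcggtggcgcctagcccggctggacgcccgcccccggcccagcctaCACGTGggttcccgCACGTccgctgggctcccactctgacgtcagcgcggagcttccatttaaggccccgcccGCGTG

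Each of the 15 windows was identical to the genome at its coordinates. ACGTG stood in 8 of the 15 windows and GCGTG in 7, and 12 windows, spread over all 10 genes, held at least 1 of them. Over all 32851 RefSeq windows of the same length, 17.0% held ACGTG, 28.9% held GCGTG and 39.4% held either. Both motifs contain a CpG, and these shares were not matched for CpG or GC content. No share per gene was worked out to set beside the 10 genes. The Ldha window above held ACGTG 5 times, 4 of them as both strands of 2 palindromes CACGTG, which overlap it by construction; CACGTG stood in 1 of the 15 windows and in 6.37% of all. The GC box GGGCGG stood in 8 windows against 33.8% of all, TATAAA in none against 11.7%, and GAGGAA, the core of the PU.1 site, in 3 against 23.6%. The windows of 1 gene can overlap and glycolysis genes with several starts count several times, so these are descriptions, and a match is no evidence of binding.

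Glucose enters through the facilitative transporter GLUT1, encoded by Slc2a1 on chromosome 4 from 119108711 to 119137983. Its covered length was 14517 bp in replicate 1, 18609 bp in replicate 2 and 18888 bp (64.5% of the gene) in the replicated list. Replicate 1 was the lower, and the first block was alike in both, from 695 to 11465 bp in replicate 1 and from 583 to 10193 bp in replicate 2. The main block ran 15283 bp, from 598 to 15880 bp after the outermost 5′ end, and 2 shorter ones of 506 and 3099 bp followed. All 5 annotated 5′ ends lay within 203 bp of each other, and none was under a block. The last block held the 5′ ends of the microRNA gene Mir1957a and of the antisense gene Gm12867, and the lists carry no strand to part them from Slc2a1.

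The hexokinases trap glucose in the cell as glucose 6-phosphate. Hk1, the widely expressed form, lies on chromosome 10 from 62268855 to 62379908 and was covered over 23100 bp in replicate 1, 32117 bp in replicate 2 and 27718 bp (25.0%) in the replicated list. Its first block began 37578 bp after the outermost 5′ end, and at 38440 bp in replicate 1 and 36971 bp in replicate 2. Coverage lay around its internal starts: of its 12 distinct 5′ ends, 6 were marked and 2 were themselves under a block. The outermost 5′ end and the one at 21546 bp, both of transcripts in GENCODE's basic set (its better supported models), had 0 bp of their first 3 kb covered. The basic-set ends at 37186 and 39366 bp had 1819 and 2535 bp covered. At the end at 37186 bp replicate 1 had 404 bp and replicate 2 had 2375 bp. The nearest block after that end lies within the antisense gene Hk1os.

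The start at 39366 bp sat in a gap between blocks. The block before it ended 348 bp upstream, at 39018 bp, and the block after it began 442 bp downstream, at 39808 bp. In replicate 1 the gap was 1342 bp wide and in replicate 2 it was 625 bp, and the start lay inside it in both. The longest block of Hk1, 21580 bp, followed from 42709 to 64288 bp. The block before the start, of 1441 bp, lies wholly within the antisense gene Hk1os, and the 2 genes cannot be told apart there.

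Hk2, the inducible form known from muscle, fat and tumours, was covered over 13282 bp in replicate 1, 27254 bp in replicate 2 and 22188 bp (44.9%) in the replicated list. It had the lowest ratio of the replicates among the 10 genes, 0.487. Coverage began alike in both, 1348 and 1242 bp after the outermost 5′ end. The difference lay further in: past the first 13052 bp replicate 1 had 4 short blocks of 328 to 1339 bp, while a block of replicate 2 ran on from 10991 to 24873 bp and 3 more followed it. In the replicated list the 2 blocks ran 8354 and 13834 bp, and the first began 197 bp after the second basic-set start, at 1091 bp. The second block reached 24803 bp; 2476 bp of the antisense gene Gm17034 lay under these blocks too.

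Hk3, the form known from leukocytes, had 3665 bp in replicate 1, 6840 bp in replicate 2 and 5775 bp (37.5%) in the replicated list, on chromosome 13 from 55005985 to 55021385. Replicate 2 had 1 block and replicate 1 had 3 within the same stretch. The replicated block ran from 1207 to 6981 bp and covered exons 2 to 5 of the 19 exons of the outermost basic transcript in full. It began 726 bp after the nearest basic-set 5′ end, the largest such distance of the 10 genes.

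**Figure D2:**
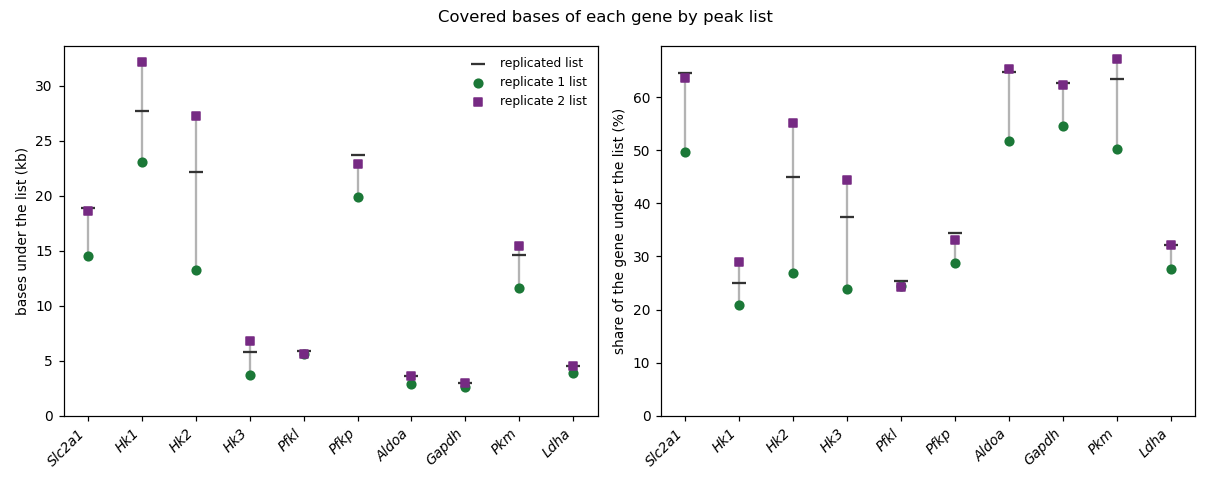
Bases (left, kb) and share of the gene (right, %) under the list of replicate 1 (circles), the list of replicate 2 (squares) and the replicated list (dashes) for each gene; grey lines join the replicates. Replicate 2 lies above replicate 1 in 9 of 10 genes, with Pfkl the exception at 5650 and 5613 bp, and Hk2 has the widest gap.

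Phosphofructokinase commits the sugar to glycolysis. Pfkl, the liver form, had nearly the same length in both lists, 5650 bp in replicate 1 and 5613 bp in replicate 2, with 5854 bp (25.3%) in the replicated list. Its 2 blocks lay between 789 and 6775 bp after the outermost 5′ end, within the first 29.3% of the gene. The other annotated 5′ ends of Pfkl, from 8604 bp onwards, all belong to transcripts outside the basic set and had 0 bp of their first 3 kb covered. Pfkp, the platelet form, had 19907 bp in replicate 1, 22891 bp in replicate 2 and 23719 bp (34.4%) in the replicated list, in 5 blocks from 88 to 26907 bp. The block nearest the start was the closest of the 10 genes to a basic-set 5′ end, 36 bp after the one at 52 bp. The highest fold over the control in Pfkp, 9.55, was the lowest such value of the 10 genes in the replicated list and took rank 6022 of 15559. With peaks under the list's median fold of 7.37 left out, the covered length of Pfkp was 10694 bp in place of 23719 bp. The fold is the authors' value for each peak and was used to rank peaks within a list.

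Aldolase splits fructose 1,6-bisphosphate into 2 trioses, and Aldoa is its muscle and general form. Its longer-covered record, on chromosome 7 from 126795234 to 126800751, had 2859 bp in replicate 1, 3606 bp in replicate 2 and 3572 bp (64.7%) in the replicated list. Both replicates had a single block, which ran from 1702 to 5273 bp in the replicated list. The block began 92 bp after the basic-set start at 1610 bp and 1398 bp after the RefSeq start printed first above. The second record of Aldoa, from 126800790 to 126809108, had no base under any of the 4 lists. The block also held 1382 bp of Fam57b, a coding gene on the other strand whose outermost 5′ end lies at 126797668, so the same peak marks both genes.

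Gapdh encodes glyceraldehyde 3-phosphate dehydrogenase, the step that makes NADH. It is the shortest of the genes at 4753 bp, on chromosome 6 from 125161715 to 125166467, and had 2589 bp in replicate 1, 2964 bp in replicate 2 and 2977 bp (62.6%) in the replicated list. The single block began at 853 bp in both replicates and at 835 bp in the replicated list, 141 bp after the basic-set start at 694 bp. That start is also the 1 RefSeq start of the gene. Every base of the block lay in an annotated exon (100%); the exons of its 13 transcripts together take up 4133 of the 4753 bp. Gapdh overlaps the coding gene Iffo1 at its 3′ end, where no base of the block lay.

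Pkm, which makes pyruvate and ATP, stood out within the 10 genes by the height of its peaks. Its highest fold was 22.0 in replicate 1, 41.9 in replicate 2 and 34.6 in the replicated list, which were ranks 94 of 22979, 17 of 31577 and 26 of 15559 peaks. The covered length was 11575 bp in replicate 1, 15476 bp in replicate 2 and 14576 bp (63.4%) in the replicated list, on chromosome 9 from 59656368 to 59679375. The blocks within the gene ran from 329 to 3057 bp, from 3322 to 12816 bp and from 13281 to 15632 bp.

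Pkm was also the only one of the 10 with a separate block in the 2.5 kb before its start. That block, on chromosome 9 from 59654384 to 59656049, lay 319 to 1984 bp upstream of the outermost 5′ end in the replicated list. It was 1425 bp wide in replicate 1 and 1512 bp in replicate 2, so it was called in each. No annotated gene of any type overlapped it or had a 5′ end in it, and the nearest coding gene on that side, Parp6, ends 6082 bp before Pkm. The start itself lay in a gap of 647 bp between the blocks, which was 1308 bp in replicate 1 and 476 bp in replicate 2, and the Pkm window printed above lies wholly within the gap of the replicated list.

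Pkm transcripts carry 1 of 2 mutually exclusive ninth exons, the M1 exon of adult muscle or the M2 exon of most proliferating cells and leukocytes. In the annotation the upstream of these 167-bp exons starts 18661 bp from the outermost 5′ end (chromosome 9 from 59675029 to 59675195). The downstream one starts at 19200 bp (59675568 to 59675734). Neither had a covered base in any list. The last covered base lay 3029 bp before the first of them in the replicated list, 5891 bp before it in replicate 1 and 1671 bp before it in replicate 2, so the blocks do not tell the isoforms apart.

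Ldha, which regenerates NAD+ by making lactate, was like Hk1 not marked at its outermost 5′ end. It had 3911 bp in replicate 1, 4555 bp in replicate 2 and 4552 bp (32.2%) in the replicated list, on chromosome 7 from 46841475 to 46855627. A single block ran from 4404 to 8955 bp, and the replicates' blocks began within 94 bp of each other. The outermost 5′ end belongs to 1 transcript outside the basic set and had 0 bp of its first 3 kb covered. The other 12 distinct 5′ ends were all marked, and the block began 38 bp after the basic-set start at 4366 bp and 75 bp after the RefSeq start printed above.

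Across the 10 genes the first block began shortly after an annotated start. In none of them was the outermost 5′ base covered, and the same held for all but 534 (8.02%) of the 6658 marked protein-coding genes. Internal 5′ ends further into the gene did lie under blocks in 7 of the genes, among them 7 of the 10 distinct ends of Gapdh, 6 of 13 in Ldha and 5 of 11 in Pkm. Measured from the nearest basic-set 5′ end upstream, the first block began after a median of 169 bp (36 to 726 bp), against a median of 296 bp and quartiles of 109 and 514 bp over 6565 marked genes. In replicate 1 the median was 409 bp (90 to 1254 bp) against 442 bp for marked genes. In replicate 2 it was 155 bp against 266 bp, with Hk1 apart at 15425 bp because its first block there began before the start at 37186 bp. Genes with many annotated starts give short distances more easily, so these distances are descriptions.

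**Figure D3:**
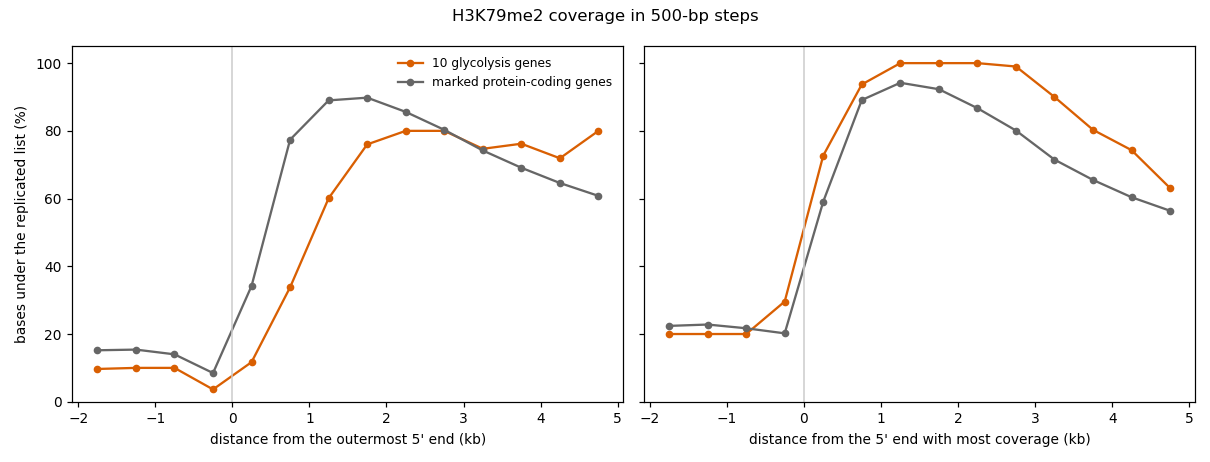
Percent of bases under the replicated list in 500-bp steps from 2 kb before to 5 kb after a start, for the 10 glycolysis genes (orange) and the 6658 marked protein-coding genes (grey), from the outermost 5′ end (left) and from the annotated 5′ end with most of its first 3 kb covered (right). Between 500 and 1000 bp the 10 genes are at 33.8% against 77.4% on the left and at 93.7% against 89.1% on the right.

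Counted from the outermost 5′ end, coverage of the 10 genes rose later than that of marked genes as a whole. Between 0 and 500 bp it was 11.7% against 34.2%, between 500 and 1000 bp 33.8% against 77.4%, and between 2500 and 3000 bp 80.0% against 80.3%. The marked genes were chosen by coverage in this window and Hk1 and Ldha were not, so the curves are set side by side without a test. From the 5′ end with most of its first 3 kb covered, an end chosen by the coverage itself, the values between 500 and 1000 bp were 93.7% against 89.1%. In the replicates' own lists they were 89.1% against 78.4% and 94.5% against 87.7%. A gene with more annotated ends has more to choose from, so its values tend to be higher by construction. With a window of 1 kb in place of 3 kb, 4 of the 10 genes were marked at the outermost 5′ end (Slc2a1, Pfkl, Pfkp and Pkm), beside 25.0% of all genes, and 10 at any 5′ end, beside 30.7%.

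At their far side the blocks stopped within the gene. The last covered base lay at 29.3% of the gene's length in Pfkl, 39.0% in Pfkp, 45.3% in Hk3, 50.2% in Hk2, 63.3% in Ldha, 67.9% in Pkm, 72.7% in Hk1, 76.4% in Slc2a1, 80.2% in Gapdh and 95.6% in Aldoa. The 2 shortest genes, Gapdh and Aldoa, were those covered nearest to their 3′ end. In the long genes the blocks were nearly all intron: 1.81% of the covered bases of Slc2a1 were exonic, 2.33% of those of Hk2, 2.42% of those of Pfkp and 2.48% of those of Hk1. The values were 38.2% in Ldha and 56.3% in Aldoa, whose exons make up 23.4% and 52.8% of the gene.

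The starts differed in base composition. CpG-rich here means a GC content of 50% or more and an observed to expected CpG ratio of 0.6 or more within 500 bp either way of the start. At the outermost 5′ end 44.4% of all and 79.1% of marked genes met both limits. Slc2a1 (0.808), Hk2 (0.817), Pfkl (0.735) and Pkm (0.665) met them, with the ratio in brackets. The outermost ends of Hk1 (0.109), Hk3 (0.363), Pfkp (0.559), Aldoa (0.259), Gapdh (0.286) and Ldha (0.264) did not. At internal starts the ratio was 0.712 in Aldoa (1497 bp), 0.763 in Ldha (4364 bp) and 0.554 in Hk1 (39366 bp), the last under the limit. Other marked internal starts had lower ratios, 0.158 at the Hk1 start at 37186 bp and 0.401 to 0.479 at the 3 Ldha starts from 5607 to 6121 bp. The nearest block after that Hk1 start lies within the antisense gene Hk1os. Hk3, Pfkp and Gapdh (0.542 at its start at 694 bp) were marked without a CpG-rich start.

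The replicates shared most of what was covered. Within the genes the Jaccard index, the shared bases over the bases in either list, ran from 0.487 in Hk2 to 0.883 in Pfkl, with a median of 0.753. Over the 5962 protein-coding genes marked in both replicates the median was 0.613. Between 93.5% and 100% of the bases in replicate 1's list were also in replicate 2's. The ratio of replicate 1 to replicate 2 had a median of 0.786 over the 10 genes and of 0.621 over those 5962 genes, and the whole lists stood at 0.556. The depth behind this difference is unknown, and its part was not tested.

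The rest of the pathway was read from lists of other genes. Of 20 other core enzyme genes, 7 were marked at the outermost 5′ end in the replicated list and in each replicate (beside 30.3% of all genes), and 13 had no covered base, as did 65.9% of all protein-coding genes. The 7 were Pgk1 (9930 bp), which encodes phosphoglycerate kinase, Gpi1 (9707 bp), which encodes the phosphoglucose isomerase, Eno1 (7894 bp, enolase), Pgam1 (5459 bp, the mutase), Tpi1 (3427 bp, the triose isomerase), the ADP-dependent glucokinase gene Adpgk (991 bp) and Pfkm (548 bp). With the 10 genes above, each enzymatic step from glucose to lactate had at least 1 gene with a block. Most steps have several genes to choose from, and no share of all genes was worked out for such a count.

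Among the 13 genes without a covered base, a share near that of all genes, were other isoenzyme genes of steps described above. The brain aldolase gene Aldoc, the enolase genes Eno2 (neurons) and Eno3 (muscle), Pgam2 (muscle), Pklr (liver and red cells) and Ldhb (heart) had 0 bp under every list. So did the germ cell genes Gapdhs, Pgk2 and Ldhc, and Hkdc1. Pfkm, the muscle phosphofructokinase gene, had 400 bp in replicate 1 and 1331 bp in replicate 2, or 1.37% of the gene in the replicated list. Bpgm, which makes the red cell regulator 2,3-bisphosphoglycerate, had 407 bp in the pooled list and 0 bp in the other 3.

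**Figure D4:**
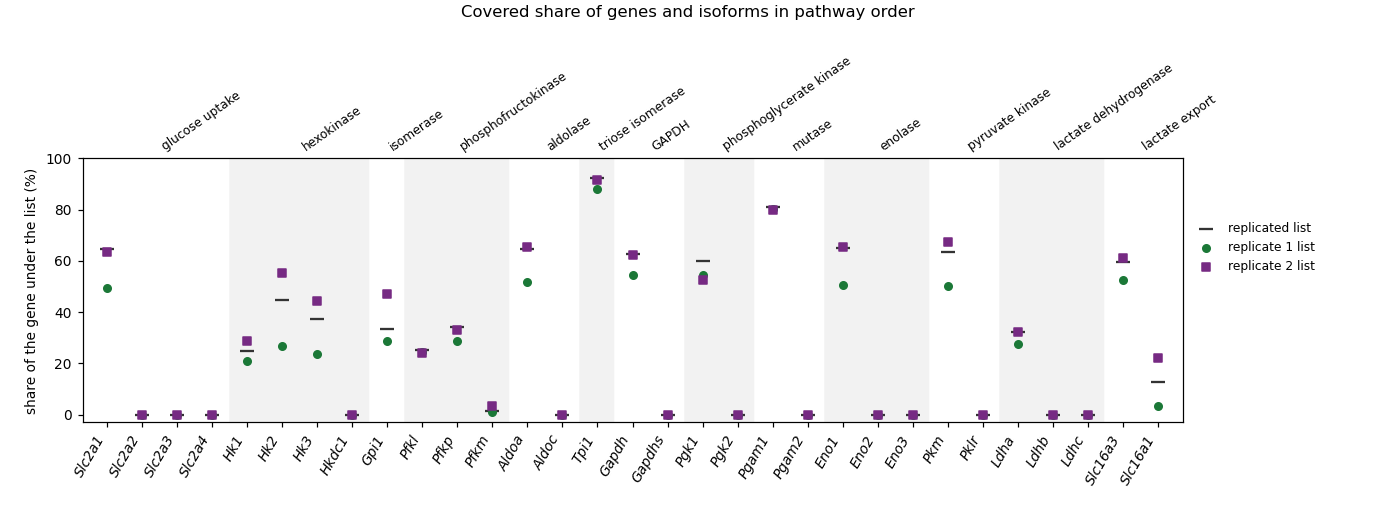
Share of each gene under the list (%, vertical) for the replicated list (dashes), replicate 1 (circles) and replicate 2 (squares), genes in pathway order with the step named above. Aldoa, Pgk1, Pgam1, Eno1, Pkm and Ldha lie above 0 while the other genes plotted for their steps lie at 0; Pfkm is at 1.37% and the glucose transporter genes Slc2a2, Slc2a3 and Slc2a4 are at 0.

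Of 8 glucose and lactate transporter genes, 2 were marked (25%), a share near the 30.3% of all genes: the lactate exporter gene Slc16a3 (7360 bp) and Slc2a6 (1720 bp). Slc2a2, Slc2a3 and Slc2a4 had no covered base in any list. Slc16a1 had 2490 bp away from its first 3 kb and was marked in replicate 2, as was Slc2a8 (778 bp), which gave 4 of 8 in that list, beside 35.6% of all genes. Of 5 genes that set fructose 2,6-bisphosphate, the activator of phosphofructokinase, 3 were marked, beside 30.3% of all genes. These were Pfkfb3 (9855 bp), Pfkfb4 (6895 bp) and Tigar (4133 bp). Pfkfb2 had 5899 bp away from its first 3 kb, and Pfkfb1 had no covered base in any list. Only Pfkfb4 was marked in replicate 1, where Tigar had 0 bp and Pfkfb3 1886 bp, so that count fell from 3 of 5 to 1 of 5. The share of all genes in replicate 1 was 27.2%. At another 5′ end Pfkfb3 had 1198 bp of the first 3 kb covered in replicate 1.

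The counts for routes that leave glycolysis are read beside the same 30.3% of all genes. All 8 pentose phosphate genes were marked, from Tkt (11146 bp), which encodes transketolase, G6pdx (10765 bp), which encodes the entry enzyme, and Rpe (10512 bp) to Pgls (1485 bp), and 7 of 8 were in replicate 1, where H6pd had 703 bp, 95 of them in its first 3 kb. Of 12 genes of pyruvate entry into mitochondria, 8 were marked, including Pdhx (14132 bp), the carrier gene Mpc1 (10918 bp) and the phosphatase genes Pdp1 (6138 bp) and Pdp2 (5985 bp). Of the pyruvate dehydrogenase kinase genes, Pdk1 was marked (3195 bp) and Pdk2, Pdk3 and Pdk4 had 0 bp in every list. Mpc2 had 4623 bp in the replicated list and 0 bp in replicate 1. Of 7 gluconeogenesis genes, 1 was marked, Pck2 (1337 bp, 0 bp in replicate 1), while G6pc, G6pc3, Fbp1, Fbp2, Pck1 and Pcx had 0 bp in every list. Together 29 of these 60 genes were marked, beside 30.3% of all genes, with 24 in replicate 1 (27.2% of all genes) and 32 in replicate 2 (35.6%). With peaks under the median fold left out, the 29 became 18, and the share of all genes was not worked out for that setting.

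**Figure D5:**
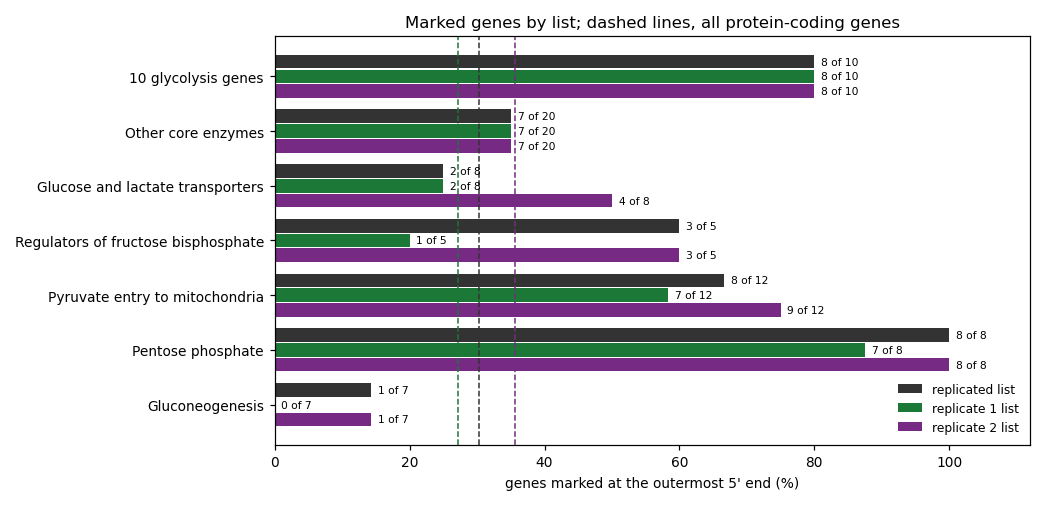
Percent of genes marked at the outermost 5′ end (bars from 0, with counts) for the 10 glycolysis genes and 6 further lists, in the replicated list, replicate 1 and replicate 2; dashed lines give the percent of all 21938 protein-coding genes in the list of that colour. The 10 glycolysis genes are at 80.0% in all 3 lists and the gluconeogenesis genes are below the dashed lines.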

How the data were processed

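H3K79me2 ChIP-seq of 2 replicates of unstimulated bone-marrow-derived macrophages was read from 4 deposited peak lists on mm10. Per the deposited text notes, 2 lists come from single replicates, 1 from the pooled alignments and 1, the replicated list, from both replicates. Aligner, peak caller and thresholds: not given in the sources used here. The authors deposited for each peak a display score, a fold over the control (taken as a ratio from the column order of the format), a −log10 q value and a summit position as an offset in bp. The score was not used, the fold served to rank and filter within a list, and q to filter.

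Touching or overlapping peaks of a list were joined and compared with GENCODE M21 on chromosomes 1 to 19, X and Y with Python 3.11.15; pysam 0.24.0 read the GRCm38 sequence. Windows were cut at the gene's end. A symbol with 2 records counts as marked where either record is. With 1 group, no test was made and replicates were compared as lists. How reads that map to several places were treated is not given; none of the annotated pseudogenes named after Aldoa, Gapdh or Ldha (2 each) had a covered base. The marking code was tested on simulated data for 21938 genes and recovered 199 of 199 planted genes. Each of these planted blocks was longer than the 200 bp minimum and lay inside the window, so the test checks the code alone. Named genes are the 10 members and the members of 6 lists, marked ones by covered bases and unmarked ones in list order. Of the other core enzyme genes, 2 are counted but not reported here by name. The members and lists were chosen with earlier results of these data known.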

Additional observations from a re-analysis of the deposited data

How the results depend on the processing

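The counts of 8 and 10 marked glycolysis genes were the same with each replicate's list (8 to 8 and 10 to 10), the pooled list, peaks at or above the median fold, peaks with a q of at most 0.001 and a minimum of 1 or 1000 bp. Some of these settings could hardly lower the counts. The pooled list shares 15202 peaks with the replicated list. A minimum of 1 bp cannot give fewer genes than 200 bp, and the q filter left every gene's covered length unchanged. With a window of 1 kb the count at the outermost 5′ end was 4 (25.0% of all genes) and with 5 kb it was 9. The count at any 5′ end was 10 with either window and with protein-coding or basic transcripts alone. The share of all genes marked was worked out only for the deposited lists and the 1 kb window. The counts under the other settings therefore have no such share beside them. The covered bases of the 10 genes summed to 129819 bp, and to 101055 to 139925 bp when either replicate's list was left out. The 29 marked genes of the other lists became 18 when peaks under the median fold were left out, again without a share of all genes. They ranged from 24 to 32 between the replicates' lists. Of 50 covered lengths of single genes under these alternatives, 39 moved by less than 1 SD between the replicates. The other 11 moved further, all of them lower. That SD was set by the replicates' own lengths, which are also among the 50 values, and the q filter changed no gene's length. The split therefore cannot tell how stable the lengths are. Pfkl counted as moved when 5854 bp became 5650 bp in replicate 1, while Hk2 did not when 22188 bp became 13282 bp there. The largest drop among the 11 was in Pfkp, from 23719 to 10694 bp without peaks under the median fold. By a count defined after seeing the data, the first block lay within 1000 bp after a basic-set 5′ end in 10 genes, and in 9 in each replicate's list. All 10 genes shared at least 200 bp between the replicates and 9 had a Jaccard index of at least 0.5. No paired analysis was possible because there is 1 group. Without read counts, depth limits what absence of a block can show, as for genes listed at 0 bp.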
